A study of Mus musculus with 12 samples.

Results

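The livers of 3 mice given curcumin at 100 mg/kg (high) were compared with those of 3 mice given 50 mg/kg (medium), 6 of the 12 libraries of a bulk RNA sequencing study of liver fibrosis. The members were taken by their dose labels, and the other libraries, from 3 injured mice without curcumin and 3 given a lower dose, do not enter the comparison. All mice were labelled wild type (WT), of strain C57BL/6J and 6 weeks old at the start. Both groups carried the same injury: 200 µL of a 7.5% solution of carbon tetrachloride (CCl4) in olive oil, injected into the abdomen 2 times a week over 6 weeks. Both also had curcumin by gavage each day for 2 weeks, so the labelled difference between the groups is the dose, and neither is an untreated or uninjured liver. The labels give each library as a biological replicate. They state that 3 mice shared a cage, but not whether cage mates had the same dose. If cage mates did have the same dose, the effects of cage and dose cannot be told apart with 3 mice in a group.

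Carbon tetrachloride is turned into a reactive radical by cytochrome P450 in the hepatocytes around the central vein. Repeated injury activates stellate cells, the vitamin A storing pericytes of the sinusoid, which then lay down collagen while macrophages gather around dying hepatocytes. Curcumin, the yellow polyphenol of turmeric, is conjugated in the liver by UDP-glucuronosyltransferases and sulfotransferases, and it is studied as an inhibitor of inflammatory signalling through NF-κB. The series title places Slamf8, a SLAM family receptor of macrophages, and TNF/NF-κB signalling downstream of it. Gene groups that read fast changes in liver state are the immediate early genes, whose transcription starts within minutes of a stimulus, and the targets of FOXO1, a transcription factor that insulin removes from the nucleus.

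The upstream sequences of 4 genes are shown, because these genes stand for these modes of control and their log2 differences between the doses lay between 1.27 and 2.41: Igfbp1 and G6pc for the insulin-regulated genes, Fos and Nr4a1 for the immediate early genes. None passed the test. Every high liver was above every medium liver for Igfbp1 and Nr4a1, and 1 high liver overlapped the medium livers for G6pc and for Fos. Nr4a1 was picked after its values were seen. Each is the 250 bases before the annotated start site in RefSeq on GRCm38.p6, given 5′ to 3′ on the gene's strand: chr11:7197537-7197786 for Igfbp1, chr11:101367466-101367715 for G6pc, chr12:85473640-85473889 for Fos and chr15:101266596-101266845 for Nr4a1, all on the plus strand. Capitals mark CAAAACA, the core of the insulin response element that FOXO factors bind, in Igfbp1 and G6pc. In Fos and Nr4a1 they mark TGACG, the core of the cAMP response element bound by CREB. Either motif was searched on both strands, so TGTTTTG and CGTCA are the same motifs read on the minus strand.
Igfbp1: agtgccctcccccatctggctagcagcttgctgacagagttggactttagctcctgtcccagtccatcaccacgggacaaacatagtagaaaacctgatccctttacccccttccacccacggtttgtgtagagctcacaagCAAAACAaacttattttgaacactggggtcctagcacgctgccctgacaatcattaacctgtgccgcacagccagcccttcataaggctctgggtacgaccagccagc
G6pc: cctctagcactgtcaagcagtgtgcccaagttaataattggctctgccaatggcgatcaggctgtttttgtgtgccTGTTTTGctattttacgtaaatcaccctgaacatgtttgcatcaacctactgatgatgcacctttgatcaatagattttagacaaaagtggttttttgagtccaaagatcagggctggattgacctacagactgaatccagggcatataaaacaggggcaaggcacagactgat
Fos: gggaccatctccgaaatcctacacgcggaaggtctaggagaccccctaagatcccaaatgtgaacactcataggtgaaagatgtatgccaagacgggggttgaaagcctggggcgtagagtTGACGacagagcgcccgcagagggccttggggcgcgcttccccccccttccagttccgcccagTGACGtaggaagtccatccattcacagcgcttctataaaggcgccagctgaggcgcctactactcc
Nr4a1: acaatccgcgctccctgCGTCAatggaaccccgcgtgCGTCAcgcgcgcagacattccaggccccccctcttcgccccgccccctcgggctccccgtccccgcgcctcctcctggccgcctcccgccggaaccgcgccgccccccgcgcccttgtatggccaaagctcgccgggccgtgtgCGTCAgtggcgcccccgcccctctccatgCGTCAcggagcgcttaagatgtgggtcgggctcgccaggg
In Igfbp1 the motif began 108 bases before the start site, and in G6pc it began 174 bases before it on the minus strand. Fos held TGACG at 129 and 66 bases before its start, and Nr4a1 held it on the minus strand at 233, 213, 69 and 40 bases before its start. Among the 25 tested genes of the FOXO1 and gluconeogenesis list, 21 had an upstream sequence and 5 of these held CAAAACA (Igfbp1, G6pc, Irs2, Irs1 and Creb3l3), which 5.56% of 32851 promoter windows of the same length hold. Among 21 tested immediate early genes, 18 had one and 11 held TGACG, which 17.8% of all windows hold. The full cAMP response element TGACGTCA, which contains TGACG, was found in 2 of the 18 (Btg2 and Dusp1) and in 1.55% of all windows. TGANTCA, the AP-1 motif that the FOS and JUN proteins bind, was found in 0 of the 18 and in 6.75% of all windows. A listed gene was counted if any of its windows held the motif, whereas the percentages are shares of single windows. The counts and the percentages are therefore not like for like. A match describes the letters in a window and not a bound site.

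The 6 libraries differed more by a feature that ran across the doses than by dose. They held 36015134 to 67695784 counts in the high group and 48056706 to 68590840 in the medium group. Mitochondrially encoded transcripts took 30.3%, 64.7% and 42.1% of the counts in high livers 1 to 3, against 48.3%, 55.5% and 60.2% in medium livers 1 to 3. High liver 1 had the lowest share of the 6 and high liver 2 the highest, so the medium group lay inside the range of the high group. The means were 45.7% ± 17.5 in high and 54.7% ± 6.01 in medium livers (SD, n = 3 each), a difference of -9.01 percentage points with a two-sided exact permutation p of 0.5, where 0.1 is the smallest such a design allows. The labelled tissue was borne out by its markers: albumin transcripts (Alb), the main hepatocyte product, made up 10.1%, 1.38% and 8.49% of the counts outside mitochondrial genes and their nuclear copies in high livers, against 7.53%, 3.07% and 2.27% in medium livers. The first principal component of the log2 CPM values held 70.6% of the variance and placed high liver 1 at -78.5 and high liver 2 at 48.3, with all 3 medium livers between them.

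**Figure D1:**
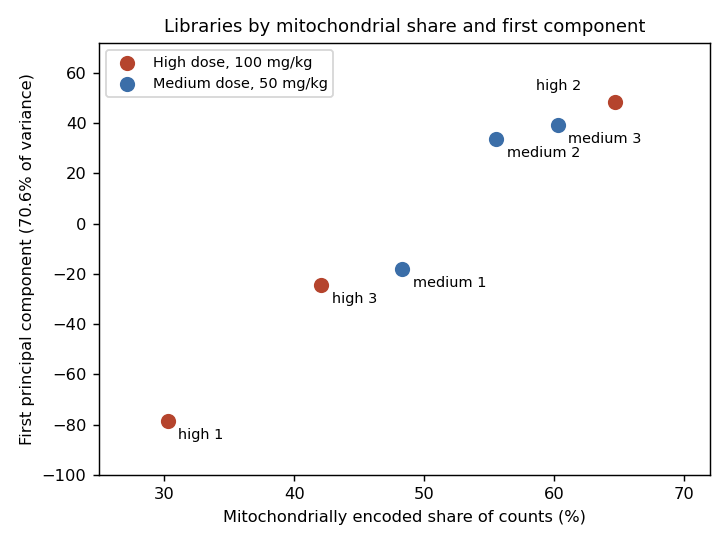
The share of counts on mitochondrially encoded genes (x axis, percent) against the first principal component of log2 CPM (y axis, 70.6% of the variance), 1 point per liver, for the high and the medium group. High liver 1 (30.3%) and high liver 2 (64.7%) form the ends of both axes, and the medium livers lie between them.

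No gene passed the test between the doses, and the median difference over all genes moved with the scaling. In edgeR's quasi-likelihood fit on 15919 genes, 0 were called (0% of those tested) at a Benjamini-Hochberg adjusted p of 0.05, and the smallest adjusted p was 0.912. At an unadjusted p of 0.05, 360 genes (2.26%) lay higher and 149 (0.936%) lower in high livers and 509 together (3.2%). By chance alone, 796 genes would be expected at that threshold. The 509 became 275 without high liver 1, 3007 without high liver 2, 266 without medium liver 2 and 261 without medium liver 3. In each of these fits 0 genes were called at the adjusted threshold. All 3 high libraries were above all 3 medium libraries for 627 genes (3.94%) and below them for 710 (4.46%). Differences are given below as log2 of high over medium from that fit, on TMM-normalised CPM (counts scaled to library size), with their standard error. Over all genes tested, 52.5% lay above 0 and the median was 0.03, which became 0.26 when libraries were scaled to their totals and -0.15 when scaled to their counts outside mitochondrial genes and copies. List medians are to be read against it, and a range in brackets after one is that of the same median over the 6 fits with 1 library left out. High livers varied more among themselves: of 10307 genes whose log2 CPM averaged 1 or more, 80.5% had the larger SD of log2 CPM in the high group, with a median of 0.50 against 0.28 in the medium group. The median standard error of a log2 difference was 0.34 over these genes. Every value below therefore describes these 6 livers, and none is a called change in this fit. In bulk liver, fewer cells of a type and less RNA per cell cannot be told apart.

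The genes with the smallest p among those higher in high livers included Igfbp1. This insulin-like growth factor binding protein is secreted by hepatocytes and held down by insulin. It was at 26.7, 7.56 and 16.4 CPM in high livers 1 to 3, against 3.25, 4.05 and 2.21 CPM in medium livers 1 to 3. All high livers were above all medium livers, with a log2 difference of 2.41 ± 0.48 (SE). Jchain, the chain that joins polymeric IgA and IgM in plasma cells, was at 6.07, 2.84 and 6.76 CPM in high livers and at 1.57, 1.31 and 1.10 CPM in medium livers. Its groups did not overlap either, at 1.98 ± 0.38. Egr1, an immediate early zinc-finger transcription factor, was at 8.78, 6.38 and 10.1 CPM in high livers and at 2.22, 3.62 and 3.72 CPM in medium livers, a difference of 1.40 ± 0.31 with the groups apart. C1qc, a chain of complement C1q that macrophages make, was at 17.6, 9.53 and 7.94 CPM in high livers and at 5.21, 4.49 and 4.44 CPM in medium livers. The medium livers were close together, and every high liver was above them, at 1.31 ± 0.34.

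The remaining genes of this group served varied functions. Ccn2, a matricellular protein induced by TGF-β, was 1.35 ± 0.38 higher on the log2 scale, with 4.31, 2.11 and 3.93 CPM in high livers and 1.85, 1.11 and 1.10 CPM in medium livers. Ppat, the enzyme of the committed step of purine synthesis, was 0.83 ± 0.24 higher, Dpm1, which makes the mannose donor for N-glycans, 1.01 ± 0.28 higher, and Tsr1, a maturation factor of the small ribosomal subunit, 1.29 ± 0.27 higher. In each of these the libraries of the groups were apart. Serpinb6a, an intracellular protease inhibitor, stood at 4.19, 4.16 and 4.27 CPM in high livers and 1.55, 1.99 and 2.06 CPM in medium livers. The livers of each group were close together and the groups apart, with a difference of 1.17 ± 0.26. Homer3, a synaptic scaffold protein, was 1.41 ± 0.38 higher with the groups apart. Nbl1, a secreted BMP antagonist, and Plac9a differed more, at 2.56 ± 0.68 and 2.17 ± 0.60, but high liver 2 overlapped the medium livers in both. Of the exon bases, 32.3% in Tsr1, 29.3% in Serpinb6a, 25.4% in Homer3 and 23.2% in Ccn2 lie opposite a gene on the other strand, and no source used here says whether the counting used strand.

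**Figure D2:**
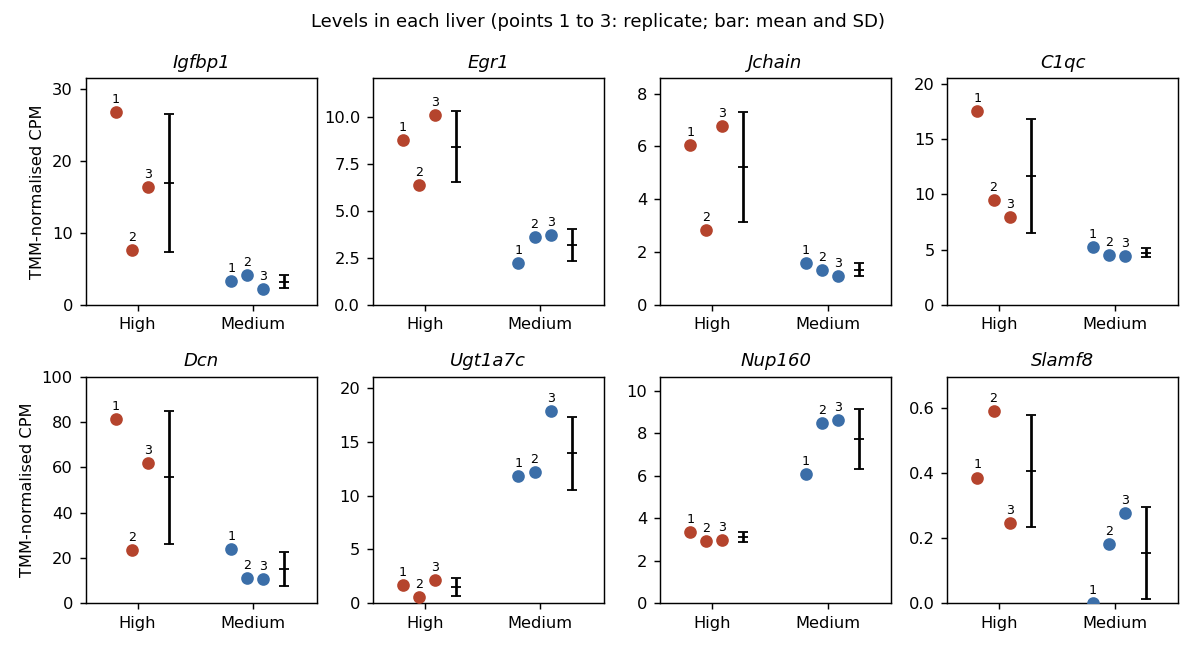
TMM-normalised CPM (y axis) of 8 genes in each liver, high dose left of medium dose, with points numbered by replicate and a bar for the mean and SD (n = 3 each). Igfbp1, Egr1, Jchain and C1qc show all high livers above all medium livers, Ugt1a7c and Nup160 all below, and in Dcn high liver 2 (23.5 CPM) lies just below medium liver 1 (23.7 CPM), while Slamf8 overlaps.

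Among the genes lower in high livers, Ugt1a7c had the smallest p of any gene tested. It encodes a UDP-glucuronosyltransferase of the family that conjugates polyphenols. Ugt1a7c was at 1.68, 0.591 and 2.17 CPM in high livers 1 to 3, against 11.8, 12.2 and 17.9 CPM in medium livers 1 to 3. No high liver came near a medium one, and the log2 difference was -3.22 ± 0.48. The genes of this locus share their 3′ exons, and 54.6% of the exon bases of Ugt1a7c are shared with other genes there, so reads of shared exons can be assigned to any of them. Its neighbours pointed in several directions: Ugt1a6b was at 7.44, 0.872 and 2.73 CPM in high livers and 3.82, 17.3 and 26.4 CPM in medium livers (-2.09 ± 0.87), whereas Ugt1a9 was at 2.06 ± 1.13 and Ugt1a10 at 2.69 ± 1.80. Ugt1a1, which conjugates bilirubin and carried most of the locus's counts, was at 207, 246 and 173 CPM in high livers and 199, 211 and 166 CPM in medium livers. It differed by 0.12 ± 0.38, inside the spread of either group. The 9 Ugt1a genes summed to 389, 310 and 268 CPM in high livers and 309, 292 and 282 CPM in medium livers. That sum averaged 322 ± 61.2 CPM in high and 295 ± 13.4 CPM in medium livers (SD, n = 3 each; two-sided exact permutation p = 0.6), so the locus as a whole did not differ beyond the spread between livers. Over the 22 tested conjugation enzymes, 14 were above 0 and the median was 0.15, which was -0.23 without high liver 1. It was -0.08 when the libraries were scaled to their counts outside mitochondrial genes, where the median of all genes was -0.15.

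Nup160, a scaffold subunit of the nuclear pore, was the next of the genes lower in high livers. It was at 3.36, 2.92 and 2.98 CPM in high livers, against 6.09, 8.49 and 8.64 CPM in medium livers. The high livers were close to each other and all were below the medium livers, with a difference of -1.32 ± 0.25. The other genes named by p were apart between the groups too. Fam160a2, a cargo adaptor subunit for dynein, was -1.04 ± 0.28, Cfhr3, a complement factor H relative, -0.89 ± 0.25, and Rmc1, an endolysosomal trafficking protein, -0.89 ± 0.29. The centrosomal proteins Cep135 and Cep57l1 were at -1.16 ± 0.36 and -0.82 ± 0.28. Acvr2b, an activin receptor, was at -1.21 ± 0.39, and Btla, an inhibitory receptor of lymphocytes, at -1.23 ± 0.40. Fkbp3, a nuclear prolyl isomerase, was at 2.67, 9.56 and 9.38 CPM in high livers and 16.1, 17.3 and 26.3 CPM in medium livers, a difference of -1.47 ± 0.49. Prdm4, a zinc-finger protein, and Tmem175, a lysosomal potassium channel, were at -0.80 ± 0.26 and -1.09 ± 0.37, and 35.3% of the exon bases of Tmem175 overlap Dgkq on the other strand.

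Immediate early genes lay higher in high livers almost throughout the list. Of 21 tested, 20 were above 0, with a median log2 difference of 0.79, and 9 had all high above all medium livers, where 3.94% of all genes had. None passed the adjusted threshold, and 9 were higher at an unadjusted p of 0.05, which 2.26% of all genes were. By protein family, the EGR and KLF zinc-finger factors included Egr1, described above, Klf2 at 16.4, 8.35 and 14.1 CPM in high livers and 7.53, 5.84 and 5.30 CPM in medium livers (1.06 ± 0.32), and Klf4 (1.51 ± 0.46). Fos, the AP-1 subunit whose upstream sequence is shown above, was at 4.86, 0.816 and 4.05 CPM in high livers, against 0.591, 0.712 and 0.967 CPM in medium livers. Its difference of 2.11 ± 0.62 came from high livers 1 and 3, because high liver 2 lay inside the medium range. The Fos partners Jun and Jund were at 1.15 ± 0.37 and 1.28 ± 0.42 with the groups apart, and 52.6% of the exon bases of Jund lie opposite another gene. Nr4a1, an orphan nuclear receptor induced by cAMP, was at 3.70, 1.69 and 2.01 CPM in high livers and 0.701, 1.08 and 1.30 CPM in medium livers. All high livers were above the medium ones, at 1.27 ± 0.42. Ier3, a stress-induced survival factor, was at 1.88, 2.22 and 2.01 CPM in high livers and 0.868, 1.15 and 0.855 CPM in medium livers, a difference of 1.09 ± 0.31. Btg2, an antiproliferative factor, and Ier2 were also apart, at 0.79 ± 0.29 and 0.46 ± 0.26. Only Myc was below 0, at -0.25 ± 0.41, and it lay above 0 on library totals (0.049) and without medium liver 2 (0.24). Klf4, Jun, Jund, Nr4a1, Btg2, Ier2 and Myc were named after their values were seen. The median was 0.44 without high liver 1 and 1.02 without high liver 2, and 0.46 with the mitochondrial share as a covariate. The list's scores, mean log2 CPM centred per gene, were 0.85, -0.18 and 0.43 in high livers and -0.51, -0.39 and -0.21 in medium livers, so every high liver was above every medium liver.

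**Figure D3:**
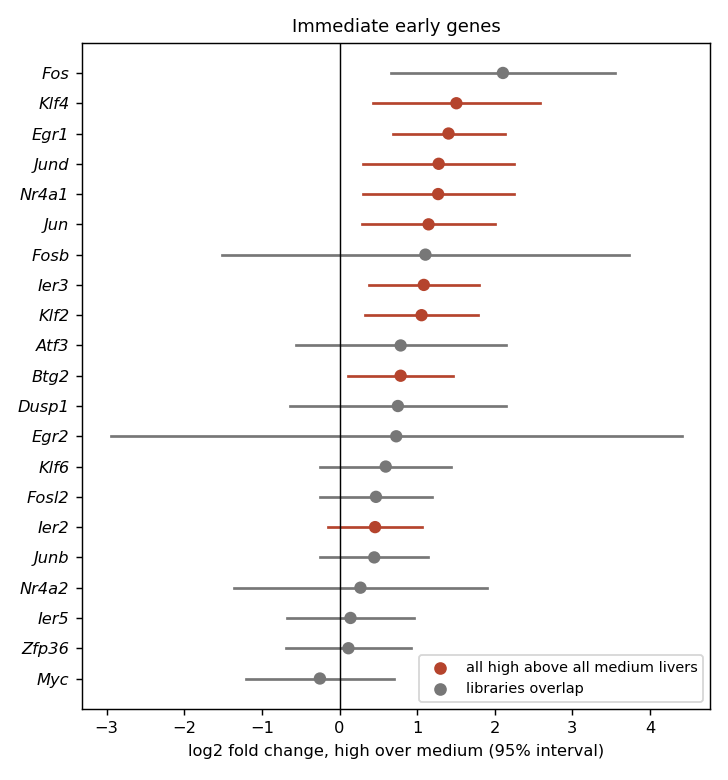
Log2 difference of high over medium (x axis) with its 95% interval for the 21 tested immediate early genes (rows), coloured where all high livers were above all medium livers. Of these, 20 lie above 0 and 9 have groups that do not overlap, while Myc lies at -0.25 in this fit.

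Among genes that insulin represses through FOXO1 or that make glucose, 17 of 25 tested were above 0. The median was 0.16 (0.095 without high liver 2 to 0.29 without high liver 3), beside 0.03 for all genes, and it was -0.02 with limma voom and library weights. All high livers were above all medium livers for 3 members, where 3.94% of all genes had this, and 3 were higher at an unadjusted p of 0.05, where 2.26% of all genes were. The list's scores were 0.33, 0.18 and -0.049 in high livers and -0.13, -0.16 and -0.17 in medium livers, so every high liver was above every medium liver. Among the 52 lists, this order was also seen for the immediate early, Kupffer cell, Toll-like receptor and inflammasome, and stress response and p53 lists. The interferon response list and the B and plasma cell list had the reverse order. No list score was tested. Besides Igfbp1, the members of the FOXO1 and gluconeogenesis list included G6pc, the glucose-6-phosphatase that releases glucose from the liver. It was at 143, 47.7 and 28.5 CPM in high livers and 29.1, 13.4 and 15.1 CPM in medium livers. High liver 3 lay just below medium liver 1, and the difference was 1.93 ± 0.65. Sik1, a cAMP-induced kinase, was at 29.4, 12.5 and 9.06 CPM in high livers and 6.66, 7.80 and 8.48 CPM in medium livers. The groups were apart by a small gap, at 1.15 ± 0.44. Irs2, the insulin receptor substrate that fasting induces, was at 1.12 ± 0.49 with overlap. Of 23 glycolysis genes 17 were above 0, with a median of 0.44 that was 0.07 without high liver 1. Pfkfb3, which makes the activator of phosphofructokinase, was at 10.4, 14.1 and 19.3 CPM in high livers and 7.55, 4.91 and 10.4 CPM in medium livers. The highest medium liver was just under the lowest high liver, and the difference was 0.94 ± 0.36. The kinases Hk1 and Pkm were at 1.06 ± 0.42 and 0.75 ± 0.31, and lactate dehydrogenase Ldha at 1.25 ± 0.56. In the lipogenesis list, with a median of 0.07 (0.02 to 0.38) over 21 genes, Acly, which makes cytosolic acetyl-CoA, was at 101, 98.9 and 62.9 CPM in high livers and 44.0, 47.0 and 54.0 CPM in medium livers. It was apart between the groups at 0.86 ± 0.35. Klb, the FGF21 and FGF15 co-receptor, was likewise apart at 0.80 ± 0.26, in a bile acid list with a median of -0.10 (-0.15 to 0.10) over 24 genes.

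For the axis the series title names, the data gave wide intervals. Slamf8 was at 0.387, 0.591 and 0.247 CPM in high livers, against 0, 0.183 and 0.279 CPM in medium livers. The groups overlapped, and the difference of 1.38 ± 1.04 had a 95% interval from -1.04 to 3.81. They rest on 35, 21 and 13 counts in high livers and 0, 10 and 15 counts in medium livers. Of 8 tested SLAM family genes 5 were above 0, the median was 0.05 (-0.41 without high liver 1 to 0.23 without high liver 2), and Slamf9 (1.49 ± 1.00) was the only member of this list with the groups apart. Tnf was at 0.398, 0.900 and 0.418 CPM in high livers and 0.314, 0.146 and 0.149 CPM in medium livers. Every high liver was above every medium liver, with a difference of 1.47 ± 0.62. The NF-κB subunits were nearly level: Nfkb1 at -0.14 (95% interval -0.77 to 0.48) and Rela at 0.12 (-0.59 to 0.82). The inhibitor and NF-κB target Nfkbia was at 0.29 (-0.33 to 0.91). Over 32 TNF and NF-κB genes, 18 were above 0 and the median was 0.11 (-0.00069 to 0.15). It was -0.08 with scaling to counts outside mitochondrial genes, where the median of all genes was -0.15, and -0.03 with limma voom and library weights. Il1b, an inflammatory cytokine, was apart at 0.87 ± 0.38, and Ltb, a lymphoid TNF relative, was apart the other way at -0.54 ± 0.31.

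Chemokines mostly lay higher in high livers 1 and 3, and interferon-induced genes mostly lay lower in high livers. Of 18 chemokine genes 16 were above 0, with a median of 0.73 that was 0.33 without high liver 1 and 0.03 with the mitochondrial share as a covariate. All high livers were above all medium livers for 2, where 3.94% of all genes had this. The list's scores were 0.80, -0.43 and 0.47 in high livers and 0.10, -0.39 and -0.56 in medium livers. Its summed level averaged 181 CPM in high and 183 CPM in medium livers. Cxcl16, the ligand of Cxcr6, was at 6.18, 3.88 and 4.06 CPM in high livers and 3.08, 1.64 and 2.38 CPM in medium livers. Its groups were apart, at 0.99 ± 0.34, with 18.3% of its exon bases opposite another gene. Cxcl13, a B cell attractant, was apart as well at 1.34 ± 0.54, and Ccl6, made by myeloid cells, overlapped at 1.28 ± 0.51. Cxcl1, a neutrophil attractant made by stressed hepatocytes, went against the list, at 6.08, 17.4 and 10.7 CPM in high livers and 14.4, 25.6 and 47.6 CPM in medium livers (-1.36 ± 0.54). High liver 2 overlapped the medium livers for it. Of 34 interferon response genes 26 were below 0, with a median of -0.31 that was -0.17 without high liver 1 and also without medium liver 2, and 4 had all high below all medium livers, where 4.46% of all genes had. Rsad2, an antiviral radical SAM enzyme, was at 0.840, 0.450 and 1.01 CPM in high livers and 1.46, 2.03 and 2.60 CPM in medium livers. It was apart at -1.39 ± 0.41, as was the antiviral GTPase Mx1 at -1.20 ± 0.51. Irf1, a transcription factor of the response, overlapped at -0.69 ± 0.34, and Gbp2, a guanylate-binding protein, stood at 1.04 ± 0.49. In the list of Toll-like receptors and inflammasome genes the median was -0.02 (-0.100 to 0.11) over 23 genes. Tlr13, a sensor of bacterial ribosomal RNA, was apart above (1.62 ± 0.48), and Tlr3, a sensor of double-stranded RNA, apart below (-0.82 ± 0.28). Cd14, the lipopolysaccharide co-receptor, was at 3.60, 0.197 and 2.09 CPM in high livers and 0.111, 0.0731 and 0.223 CPM in medium livers, where high liver 2 lay among the medium livers (3.85 ± 0.99).

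Apart from those of recruited macrophages in high liver 2, macrophage genes mostly lay higher in high livers. All of the C1q chains did: C1qb was apart at 0.95 ± 0.35 and C1qa overlapped at 1.15 ± 0.49, beside C1qc described above, in a complement and coagulation list with a median of 0.30 over 37 genes that was -0.06 without high liver 1. Of 17 Kupffer cell genes 13 were above 0 and 6 had all high above all medium livers, where 3.94% of all genes had, with a median of 0.29 that stayed between 0.23 and 0.33 with any library left out. Marco, a scavenger receptor, was at 2.45, 2.22 and 2.98 CPM in high livers and 0.757, 0.731 and 1.71 CPM in medium livers, at 1.26 ± 0.41. Vsig4, a complement receptor that defines resident Kupffer cells, was at 5.10, 6.36 and 4.37 CPM in high livers and 3.40, 3.49 and 3.81 CPM in medium livers. Both were apart between the groups, Vsig4 by 0.56 ± 0.25. Of 18 genes of recruited and scar-associated macrophages 15 were above 0, with a median of 1.14 that was 0.50 without high liver 1. Lyz2, the myeloid lysozyme, was at 32.4, 13.9 and 9.76 CPM in high livers and 8.27, 5.28 and 7.14 CPM in medium livers. It was apart at 1.44 ± 0.46, and Cd68, a lysosomal macrophage protein, was apart at 0.89 ± 0.31. Lgals3 and Gpnmb, which mark scar-associated macrophages, overlapped at 1.17 ± 0.44 and 2.10 ± 0.79. Summed over that list, the level was 151, 43.1 and 71.3 CPM in high livers and 50.8, 33.7 and 38.7 CPM in medium livers, so high liver 2 was below medium liver 1. The list's scores, in which each gene weighs the same, were 1.39, -0.58 and 0.18 in high livers. In medium livers they were -0.07, -0.52 and -0.40, so high liver 2 was the lowest of the 6.

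Lymphocyte genes did not follow the macrophage genes. Of 18 B and plasma cell genes 15 were below 0, with a median of -0.61, and 6 had all high below all medium livers, where 4.46% of all genes had. Ms4a1, which encodes CD20 on B cells, was at 0.497, 0.759 and 0.722 CPM in high livers and 1.27, 1.37 and 1.36 CPM in medium livers. The groups were apart at -1.02 ± 0.35, and Ighd, the IgD constant region of naive B cells, was apart at -0.73 ± 0.28. The members above 0 included Jchain and Ighm, the IgM constant region, which was at 35.2, 8.75 and 23.8 CPM in high livers and 9.32, 10.8 and 10.7 CPM in medium livers. High liver 2 was below all medium livers for Ighm, and the difference was 1.14 ± 0.47. The list's median was below 0 under every scaling tried. Of 20 T and NK cell genes 14 were below 0, with a median of -0.25 that was 0.04 without high liver 2. On library totals it was 0.11, where the median of all genes was 0.26. Klrk1, the activating receptor NKG2D, was apart at -1.06 ± 0.37. Erythroid genes had a median of -1.57 over 9 genes, which rested on medium liver 3: the summed level was 196, 248 and 201 CPM in high livers and 152, 275 and 1674 CPM in medium livers, and the median was -0.06 without it. Neutrophil genes had a median of 0.13 (-0.24 to 0.49) over 8 genes and dendritic cell genes -0.10 (-0.27 to 0.07) over 12. Platelet genes had -0.23 over 6, which was 0.012 without high liver 1 and 0.096 without medium liver 3, with Ppbp apart below at -1.03 ± 0.42.

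Matrix and stellate cell genes lay higher in high livers 1 and 3 and not in high liver 2. Of 32 fibrillar collagen and matrix genes 28 were above 0, with a median of 1.08, and 2 had all high above all medium livers, a share close to the 3.94% of all genes. At an unadjusted p of 0.05, 10 were higher and 1 was lower, where 2.26% and 0.936% of all genes were. Dcn, the small proteoglycan decorin, was at 81.6, 23.5 and 61.8 CPM in high livers, against 23.7, 11.03 and 10.7 CPM in medium livers. High liver 2 lay just under medium liver 1, and the difference was 1.88 ± 0.55. Lum, a related proteoglycan, was at 1.85 ± 0.62 and Col6a2, a chain of collagen VI, at 2.02 ± 0.64, both with overlap. Fbln2, a fibulin of elastic fibres, was apart at 1.91 ± 0.65. Of 18 activated stellate cell genes all were above 0, with a median of 1.25 and 3 had all high above all medium livers, where 3.94% of all genes had: Ccn2, Mmp2, a gelatinase, and Tagln, a smooth muscle actin-binding protein. Mmp2 was close to a tie, with 0.7312 CPM in high liver 2 and 0.7305 CPM in medium liver 2. Tagln was at 5.75, 2.50 and 1.73 CPM in high livers and 0.941, 0.493 and 1.41 CPM in medium livers (1.81 ± 0.56), and 67.9% of its exon bases lie opposite another gene. The 13 quiescent stellate cell genes were all above 0 as well, with a median of 0.47 (0.32 to 0.83), and Rgs5, a pericyte regulator of G protein signalling, was apart at 0.72 ± 0.31. Of 26 TGF-β pathway genes 22 were above 0, with a median of 0.72 (0.33 to 0.76), and Bambi, a decoy receptor, was apart at 0.70 ± 0.28. Proteases and crosslinkers of the matrix had 25 of 26 above 0 and a median of 0.81 (0.38 to 1.20), and basement membrane genes 11 of 14 and 0.45 (0.22 to 0.67), with Nid1, nidogen, apart at 1.78 ± 0.54. With the mitochondrial share as a covariate the medians were 0.27 for matrix, 0.25 for activated stellate cell, 0.14 for quiescent stellate cell, 0.17 for TGF-β pathway and 0.25 for protease genes.

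Among markers of tissue other than the lobule, portal fibroblast and mesothelial genes moved with the matrix and stellate cell lists. Skeletal muscle markers stood out in high liver 1 alone, and the summed adipose level was highest in medium liver 3. All 14 tested genes of portal fibroblasts and of the mesothelium, the covering layer of the liver, were above 0, with a median of 1.25. Their summed level was 98.3, 20.7 and 99.8 CPM in high livers and 30.2, 31.5 and 17.7 CPM in medium livers. The same livers were high as for the matrix genes: high livers 1 and 3 stood out and high liver 2 lay within the medium range. Upk3b, a mesothelial uroplakin named after its values were seen, was at 11.7, 1.57 and 15.1 CPM in high livers and 2.68, 2.03 and 1.30 CPM in medium livers (2.24 ± 0.73), and Wt1, a mesothelial transcription factor, was apart at 1.33 ± 0.33. Lrrn4 and Krt19 were at 2.74 ± 0.77 and 2.08 ± 0.60, and Krt19 is also a bile duct keratin, in a cholangiocyte list with a median of 0.28 (0.23 to 0.63) over 10 genes. Skeletal muscle transcripts stood out in 1 library. Acta1, the skeletal actin, had 5447, 7 and 0 counts in high livers and 0, 6 and 7 in medium livers, and the 9 muscle genes summed to 192, 1.69 and 1.31 CPM in high livers and 0.701, 1.15 and 1.49 CPM in medium livers. Without high liver 1 the medians were 0.56 for matrix, 0.59 for activated stellate cell and 1.32 for portal fibroblast and mesothelial genes. Some adipose transcripts were also highest in high liver 1. Cfd, the adipocyte protease adipsin, had 166, 0 and 3 counts in high livers and 6, 0 and 0 in medium livers, and Adipoq, adiponectin, had 13, 0 and 0 counts in high livers and 0 in each medium liver. Fabp4, a lipid carrier of adipocytes and also of capillaries and macrophages, was at 6.08, 2.42 and 1.80 CPM in high livers and 2.51, 1.33 and 2.16 CPM in medium livers. High liver 1 was the highest of the 6 for each of these, while Plin4, a lipid droplet protein, was highest in medium liver 3, and Lep, Plin1, Retn, Cidea and Ucp1 were at 0 in all 6 libraries. The 9 adipose genes summed to 13.8, 20.9 and 10.3 CPM in high livers and 18.8, 5.66 and 25.7 CPM in medium livers. The 10 pancreatic genes summed to 4.10, 1.80 and 2.203 CPM in high livers and 2.14, 1.30 and 0.874 CPM in medium livers. Most of that was the elastase Cela1, with 362, 42 and 104 counts in high livers and 116, 68 and 47 in medium livers, and Cela2a had 9, 15 and 12 counts in high livers and 0, 3 and 0 in medium livers. Amy2a5 and Pnlip had 4 and 3 counts in high liver 2 alone, and Prss2, Ctrb1, Cela3b, Cpa1, Ins2 and Try4 were at 0 in all 6 libraries. The part of these markers in the matrix differences was not tested.

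**Figure D4:**
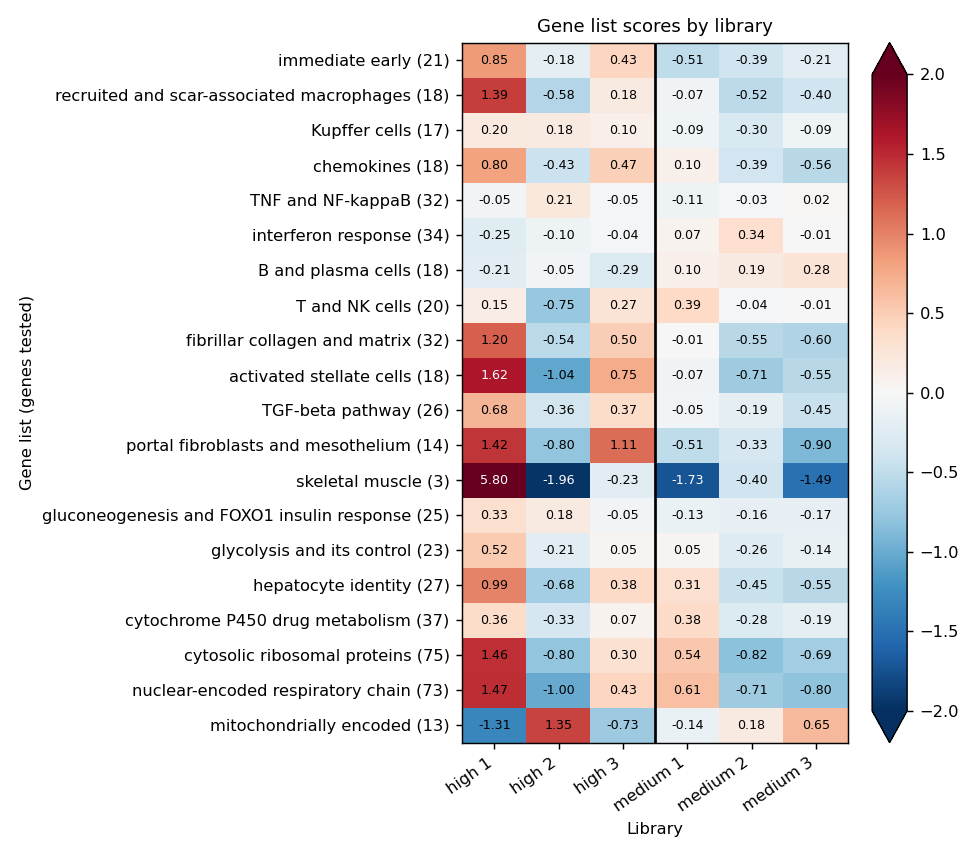
Gene list scores (mean over tested members of log2 CPM centred per gene, colour and printed value) for 20 lists (rows, with the number of genes tested) in the 6 libraries (columns), high livers left of medium livers. Matrix, stellate cell, mesothelial and ribosomal lists are highest in high liver 1 and low in high liver 2. The immediate early, Kupffer cell and FOXO1 lists are higher in every high liver than in any medium liver. The interferon response and the B and plasma cell lists are lower in every high liver than in any medium liver.

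By summed level, lists of abundant hepatocyte and housekeeping transcripts lay furthest apart between high livers 1 and 2, with the other livers in between. By list score, the ribosomal genes were instead lowest in medium liver 2 (-0.82, against -0.80 in high liver 2). Of 75 ribosomal protein genes all were above 0, with a median of 0.77 that was 0.04 without high liver 1. Their summed level was 13742, 2847 and 6564 CPM in high livers and 7638, 3001 and 3207 CPM in medium livers, highest in high liver 1, which had the lowest mitochondrial share, and lowest in high liver 2, which had the highest. Nuclear-encoded respiratory chain genes had 72 of 73 above 0 and a median of 0.76, which was 0.06 without high liver 1 and -0.13 with the mitochondrial share as a covariate. Hepatocyte identity genes had 25 of 27 above 0 and a median of 0.68, against 0.20 without high liver 1 and -0.07 with the covariate. Ahsg, the fetuin secreted by hepatocytes, was at 2887, 583 and 1261 CPM in high livers and 967, 477 and 411 CPM in medium livers (1.35 ± 0.72), with overlap. NRF2 and glutathione genes had 28 of 30 above 0 and a median of 0.76, against 0.11 and -0.01. Among them Gstp1, a glutathione transferase, was at 127, 51.5 and 68.2 CPM in high livers and 45.1, 27.1 and 47.7 CPM in medium livers, apart at 1.04 ± 0.45, and Hmox1, haem oxygenase 1, was apart at 0.79 ± 0.36. The 9 nuclear-retained noncoding RNAs ran the other way, all below 0 with a median of -0.40, and it was 0.02 without high liver 1. Neat1, the scaffold of paraspeckles, was at 61.7, 350 and 275 CPM in high livers and 357, 756 and 373 CPM in medium livers (-1.11 ± 0.69).

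**Figure D5:**
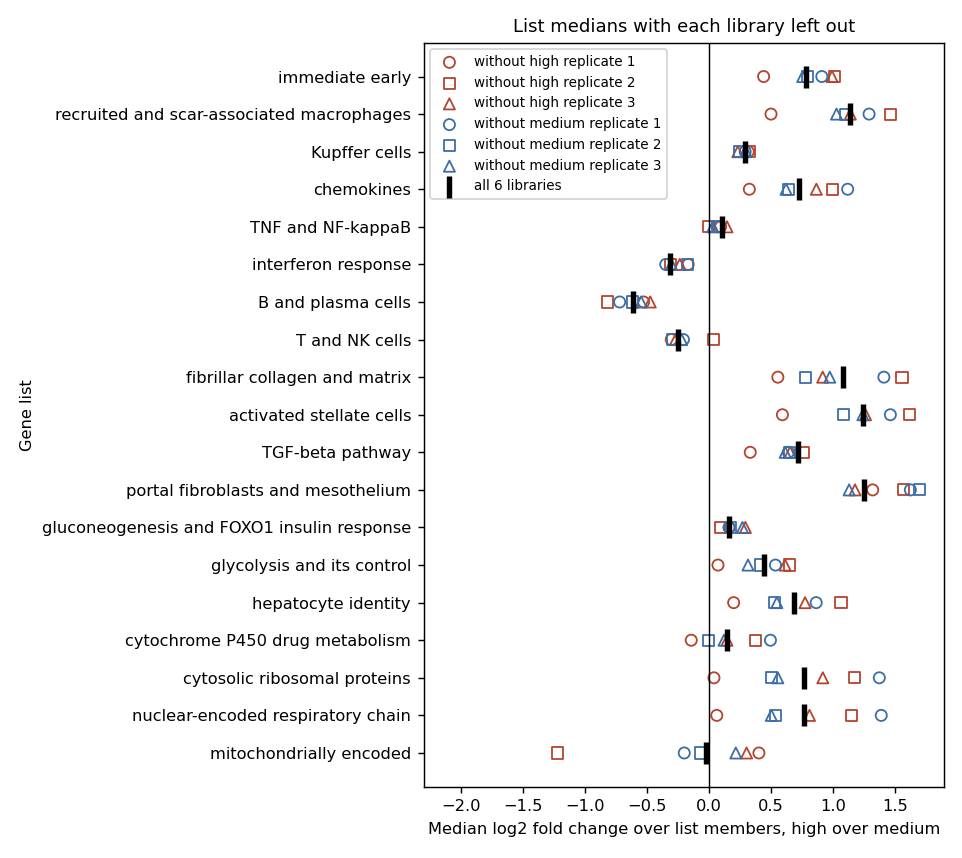
Median log2 difference of high over medium (x axis) over the members of 19 lists (rows), with all 6 libraries (bar) and with each library left out (open symbols, by group and replicate). Leaving out high liver 1 brings the ribosomal median to 0.04 and the matrix median to 0.56, while the Kupffer cell median stays between 0.23 and 0.33.

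Cytochrome P450, fatty acid oxidation, cholesterol, lipid droplet and haem lists had medians from 0.15 to 0.26, beside 0.03 for all genes. Each was below 0 without high liver 1, unlike the glycolysis, lipogenesis and FOXO1 lists given above. The median was 0.15 over 37 cytochrome P450 genes (-0.14 without that liver), 0.26 over 28 fatty acid oxidation genes (-0.18), 0.15 over 26 cholesterol genes (-0.12, and -0.15 without medium liver 3), 0.17 over 24 lipin and lipid droplet genes (-0.0058) and 0.18 over 25 haem and iron genes (-0.095). When libraries were scaled to counts outside mitochondrial genes these medians were below 0 too, but above the -0.15 of all genes under that scaling. Among their members, Abcb6, a porphyrin transporter, was apart at -0.92 ± 0.32, with 55.2% of its exon bases shared with another gene. Periportal hepatocyte genes had a median of 0.37 over 18, which was 0.049 without high liver 1 and 0.031 with the mitochondrial share as a covariate, and pericentral genes -0.05 (-0.11 to 0.10) over 18. Cdh1, the E-cadherin of periportal hepatocytes and bile ducts, was at 2.75, 1.83 and 4.81 CPM in high livers, against 0.628, 0.731 and 0.911 CPM in medium livers. Its groups were apart at 2.05 ± 0.42. Acute phase genes had a median of 0.19 (-0.094 to 0.42) over 30, with Saa3 at 1.85 ± 0.78, and glucocorticoid response genes 0.27 (0.16 to 0.39) over 15, with Sgk1 apart at 0.58 ± 0.29. Clock genes had 15 of 19 below 0 and a median of -0.10 (-0.20 to -0.099), and the groups overlapped for the period genes Per2 and Per3. Heat shock and unfolded protein genes had 23 of 26 above 0 and a median of 0.28 (0.17 to 0.47), with the small chaperone Hspb1 at 1.76 ± 0.62. Stress response and p53 targets had a median of 0.25 (0.11 to 0.31) over 25, with Gadd45b, a growth arrest gene, apart at 0.82 ± 0.32. Cell cycle genes had 0.14 (0.036 to 0.21) over 32, and Birc5, survivin, was apart below at -0.87 ± 0.38. MHC class II genes had 0.46 over 10, which was 0.18 without high liver 1 and 0.76 without medium liver 1, and sinusoidal endothelial genes 0.20 (0.014 to 0.45) over 21. The 13 mitochondrially encoded messages had a median of -0.02 that balanced opposite livers: it was 0.40 without high liver 1, -1.22 without high liver 2 and -0.89 with limma voom and library weights.

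Some genes were counted in 1 dose group alone. Evi2b, a leukocyte membrane protein, had 126 counts over the high libraries and 0 over the medium libraries, at least 38.3-fold higher against a floor of 3 counts over the group, but 98.6% of its exon bases are shared with Evi2. Apold1, an endothelial immediate early gene, had 77 against 0 counts and was at least 23.4-fold higher in high livers. Its counts were 56, 14 and 7 in high livers 1 to 3. Tubb1, the tubulin of platelets, had 0 counts in high and 60 in medium livers and was at least 22.0-fold lower, beside the platelet list given above. The RIKEN transcript 8430426J06Rik had 0 in high and 52 in medium livers and was at least 19.0-fold lower. Each fold bound pools the counts of a group and leaves out the spread between its livers. These 4 genes are named because DESeq2, run on the same counts as an alternative, called them, together with Igfbp1, Jchain, Cdh1, Ugt1a7c and Nup160: 5 higher (0.0314% of 15903 genes) and 4 lower (0.0252%) at its adjusted p of 0.05.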

How the data were processed

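Whole-liver RNA of 12 mice was sequenced, and the 6 libraries of the high and medium groups were used. RNA was isolated with TRIzol and libraries were made with a Hieff kit, per the labels' protocols. The authors deposited a table of raw gene counts, whole numbers with no normalization, 1 column per library. The submitters' processing notes name fastp 0.23.4, STAR 2.7.10b, StringTie 2.2.1 and the mm39 build. No source used here gives the step that made the counts or how it treated strand and multi-mapping reads. Of 56923 Ensembl IDs, 52073 (91.5%) had a symbol in GENCODE M21, an annotation of another build used for names and exon overlap, so no coordinates of the counted genes are given. Promoter sequences come from RefSeq on GRCm38.p6.

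Genes were tested with edgeR 4.0.16 (R 4.3.3): filterByExpr by group, TMM, robust quasi-likelihood fit of the 6 libraries, Benjamini-Hochberg adjustment over 15919 genes at a threshold of 0.05. The p-values set the difference between the doses against the spread between the livers of a group, estimated with information shared across genes. Each standard error is the fold change divided by the root of its F statistic. Nuclear copies of mitochondrial genes (11 genes, matched with BLAST+ 2.17.0 at 95% identity or more across 80% of their length or more) are not interpreted singly. The fit was tested on simulated counts with known changes. It called 0 of 67 genes changed 2-fold, 25 of 67 changed 4-fold and 57 of 66 changed 8-fold. It made 2 false calls. The simulated livers varied independently for each gene, with 1 spread per gene for both groups. In the real libraries the first principal component held 70.6% of the variance. The median SD of log2 CPM was 0.50 in high and 0.28 in medium livers. The recovered shares therefore do not give the power of the real comparison, where Ugt1a7c at -3.22 ± 0.48 was not called. A true change of 2-fold, or a larger one, could thus go uncalled in this design. Any pair of libraries of a group had a chi-square of at least 84.1 per degree of freedom, so none was a second copy. Dixon's test was not applied, since groups of 3 are too small for it.

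Named genes are, per direction, the 12 with the smallest p among characterised genes whose log2 CPM averaged 1 or more, up to 4 members of each list by p, the genes of the series title and its pathway, and calls of alternatives. Exceptions are said to be chosen after their values were seen. The 52 gene lists and the comparison itself were chosen with earlier results of these data known. Lists are described by counts and medians, with no test. Alternatives were another test (DESeq2 1.42.0, limma 3.58.1 voom with library weights), other scalings and count filters, all 12 libraries in 1 fit, a replicate block, the mitochondrial share as a covariate, and each library left out.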

Additional observations from a re-analysis of the deposited data

How the results depend on the processing

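Of 17 alternatives, 15 called 0 genes. DESeq2 called 9, of which 5 were higher in high livers and 4 lower, and the fit with the mitochondrial share as a covariate called 1, Pcdhga4, a clustered protocadherin whose exons are shared at 66.8% with other genes and which overlapped between the doses at -1.32 ± 1.36 in the reported fit, with 238, 0 and 10 counts in high and 300, 61 and 38 in medium livers. Genes at an unadjusted p of 0.05, 509 in the reported fit, numbered 846 with all 12 libraries, 3636 with limma voom and library weights, 248 on library totals, 329 on totals outside mitochondrial genes and copies, 855 without a count filter, 331 with at least 1 CPM in 3 libraries, and 261 to 3007 with 1 library left out. With the replicate number as a block 0 genes were called and 992 had an unadjusted p under 0.05. Correlations between same-numbered livers of their deviations from the group mean were 0.675, 0.415 and -0.268. Between differently numbered livers they ran from -0.737 to 0.593. So few values cannot settle whether the numbers pair the mice. The mitochondrial share difference was -11.8 points with nuclear copies included and -18.5 to -1.30 with 1 library left out. Among 110 genes named, 1828 of 1851 values kept their direction and side of the threshold, 9 passed it in DESeq2 and 1 with the covariate, and 13 changed direction. The last were Rela (-0.15 with voom, -0.028 on totals outside mitochondrial genes, -0.17 to 0.25 with a library left out), Ugt1a1 (-0.057 with voom, -0.037 on the same totals, -0.024 to 0.24 with a library left out), Nfkb1 (0.048 on library totals, 0.0029 with the covariate), Myc (0.049 on library totals, -0.54 to 0.24 with a library left out), Ugt1a9 (-0.091 without high liver 1, up to 2.74 without medium liver 3) and Pcdhga4 (-4.51 without high liver 1, 0.083 without medium liver 1). The cause was not tested. Counts of 0 to 35 per library for Slamf8 and 8 to 36 for Tnf limit their precision.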
